A study of Mus musculus with 4 samples.

Results

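The genes described here are nuclear genes of mitochondrial oxidative phosphorylation, with 4 gene copies or pseudogenes. Besides these copies they are the subunits of complexes I to V and the complex I assembly factors that share the Nduf prefix. They were chosen by symbol, as those that begin with Ndufa, Ndufb, Ndufc, Ndufs, Ndufv, Uqcr, Cox4 to Cox8 or Atp5, or are Sdha, Sdhb, Sdhc or Sdhd, and that reached a summed count of 10 over 4 libraries. Of 25239 symbols in the table, 97 matched and 93 reached that count. The filter on low counts kept 90 of the 93, which are the genes tested. Cox8b, Ndufa4l2 and Ndufa11b, the last of them a copy, did not pass it. The other 3 copies or pseudogenes, Cox7c-ps1, Ndufb4c and Ndufs5-ps, passed and count among the 90. Cox6a2, Cox7b2 and Cox8c had 0 counts in every library, and Ndufs5 had 2 counts in all. The set holds no gene of the mitochondrial genome, since the count table has 0 symbols that begin with mt-, and those subunits were not analysed here.

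Oxidative phosphorylation makes ATP with the energy of electrons passed from NADH and succinate to oxygen. Complex I takes electrons from NADH and complex II from succinate. Ubiquinone carries them to complex III and cytochrome c carries them on to complex IV, which reduces oxygen. Complexes I, III and IV pump protons across the inner mitochondrial membrane, and complex V, the ATP synthase, lets them return and makes ATP. Most subunits come from nuclear genes and are imported. NRF1, the ETS factor GABP and coactivators of the PGC-1 family are known regulators of these genes, and several complex IV subunits have tissue-restricted isoforms.

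RNA was sequenced from sorted cells of mouse hindlimb at embryonic day 11.5 in the FVB strain. Embryos of both groups carried the same reporter at the H11 locus, hsp68-hZRS(404G>A)-mCherry, in which the hsp68 promoter and a human copy of the ZRS limb enhancer carrying a base change control the red fluorescent protein mCherry. The genotype is otherwise given as wild-type. One group holds cells of the anterior hindlimb that were positive for mCherry, and the other holds cells of the central hindlimb that were negative, with 2 libraries of each. Position in the limb and reporter activity differ together between the groups and cannot be told apart. The labels do not say whether the libraries of a group came from separate embryos, so p-values measure only the spread between these libraries.

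The promoters of 5 genes that carry the main results are printed here, each from 250 bases before to 50 bases after the start site that the RefSeq promoter table gives (the first entry per symbol, GRCm38.p6, all on the minus strand and written 5′ to 3′ along the gene). Atp5g1 (chr11:96075582-96075881), Atp5g2 (chr15:102670998-102671297) and Atp5g3 (chr2:73911277-73911576) encode the same mature c subunit of the ATP synthase rotor, and of the 3 only Atp5g3 was called. Cox7a2l (chr17:83514284-83514583) and Sdha (chr13:74350191-74350490) had the smallest adjusted p-values in the set. For Atp5g2, Cox7a2l and Sdha that start site is the 5′ end of the gene in the RefSeq gene table. For Atp5g1 it lies 63 bases and for Atp5g3 1138 bases inside that gene, and the Atp5g3 window lies wholly within it. Capitals mark matches on either strand to an NRF1 pattern (GCGCANGCGC, with N any base), an ETS core (CCGGAAG), a YY1 core (AAGATGG), an SP core (GGGCGG) or CCAAT.
Atp5g1: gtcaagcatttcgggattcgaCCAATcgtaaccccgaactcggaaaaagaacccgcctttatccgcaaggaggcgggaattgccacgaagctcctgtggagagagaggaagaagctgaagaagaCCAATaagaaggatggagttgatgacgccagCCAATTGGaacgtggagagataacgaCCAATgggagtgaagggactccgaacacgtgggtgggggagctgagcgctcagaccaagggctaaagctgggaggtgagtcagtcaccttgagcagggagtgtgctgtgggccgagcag
Atp5g2: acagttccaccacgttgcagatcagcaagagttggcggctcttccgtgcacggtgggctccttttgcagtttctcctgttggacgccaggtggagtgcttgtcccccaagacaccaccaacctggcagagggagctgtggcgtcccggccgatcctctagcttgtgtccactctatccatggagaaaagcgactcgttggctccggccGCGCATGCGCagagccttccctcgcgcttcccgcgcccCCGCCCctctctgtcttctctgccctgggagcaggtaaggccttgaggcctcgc
Atp5g3: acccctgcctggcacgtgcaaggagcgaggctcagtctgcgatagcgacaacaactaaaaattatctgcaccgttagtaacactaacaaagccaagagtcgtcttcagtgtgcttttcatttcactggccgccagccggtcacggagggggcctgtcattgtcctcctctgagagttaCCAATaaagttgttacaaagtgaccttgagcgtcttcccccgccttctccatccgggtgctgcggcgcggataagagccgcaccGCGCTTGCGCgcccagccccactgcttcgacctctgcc
Cox7a2l: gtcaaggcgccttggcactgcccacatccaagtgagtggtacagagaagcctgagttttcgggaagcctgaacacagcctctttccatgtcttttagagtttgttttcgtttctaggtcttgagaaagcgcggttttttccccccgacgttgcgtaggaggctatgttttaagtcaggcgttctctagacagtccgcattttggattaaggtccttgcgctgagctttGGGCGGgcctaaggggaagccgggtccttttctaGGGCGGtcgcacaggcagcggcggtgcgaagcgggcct
Sdha: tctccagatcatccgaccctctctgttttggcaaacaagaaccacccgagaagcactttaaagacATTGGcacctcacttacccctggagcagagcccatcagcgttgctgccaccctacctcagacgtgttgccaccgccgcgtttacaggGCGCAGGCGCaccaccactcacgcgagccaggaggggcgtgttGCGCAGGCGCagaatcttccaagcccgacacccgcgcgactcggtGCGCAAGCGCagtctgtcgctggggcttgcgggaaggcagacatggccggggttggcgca
The Sdha window held 3 NRF1 matches and the Atp5g2 and Atp5g3 windows 1 each, while those of Atp5g1 and Cox7a2l held none. The Atp5g1 window held 5 CCAAT matches and that of Atp5g3 held 1. The Cox7a2l window held 2 SP matches. Promoters were found by symbol for 74 of the 93 genes. The NRF1 pattern was present in 23.0% of these 74 windows, in 9.98% of the 11438 windows of tested genes and in 4.78% of all 27025 windows. Its exact palindrome, GCGCATGCGC, was present in 9.46% of the 74 against 1.98% of tested genes. The ETS core was in 24.3% of the 74 and 17.1% of tested genes, the YY1 core in 14.9% and 6.88%, and CCAAT in 44.6% and 38.8%. The SP core was the exception, in 45.9% of the 74 and 64.2% of tested genes. These matches are letters in a window and do not show that a factor binds there.

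Libraries held 30080925 to 33257383 counts, of which the 93 genes took 0.817% to 0.906%. Values below are counts per 1 M counts of a library (CPM) after TMM scaling. Prrx1, Tbx4 and Pitx1, genes of limb and hindlimb mesenchyme, were present in every library at 641 to 717, 224.5 to 267 and 430 to 483 CPM. Between 72.8% and 75.6% of the counts from 1 to 10 were even, and a fit on halved counts kept the same 9 calls.

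To compare levels between genes, CPM was divided by transcript length in kb. ATP synthase had the highest levels: Atp5b, the catalytic beta subunit, reached 571 CPM per kb over the 4 libraries, and the 17 complex V genes had a median of 169 CPM per kb. Complex IV had a median level of 148 CPM per kb over 15 tested genes, led by Cox4i1, which encodes the common form of subunit 4, at 307 CPM per kb. Complex III was led by Uqcrh, the hinge protein, at 158 CPM per kb, with a median of 88.1. Complex II had a median level of 68.8 CPM per kb, with Sdhb, the iron-sulfur subunit, highest at 91.3. Complex I had the lowest median level of the 5 complexes, 57.8 CPM per kb over 35 genes, and ranged from 13.7 for Ndufb4 to 140 for Ndufb8, both accessory subunits. The 8 complex I assembly factors lay below nearly all subunits, at 7.71 to 24.3 CPM per kb.

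The replicates of a group differed in these genes in a shared direction. Anterior library 2 was above anterior library 1 in 73 of the 90 genes, by a median log2 difference of 0.10, while over all 14610 tested genes it was above in 7294. Central library 2 was above central library 1 in only 10 of the 90, with a median log2 difference of -0.13, against 7216 of all tested genes. In 69 of the 90 both held at once, so that anterior library 2 and central library 1 were the high libraries of their groups. Transcripts under 1000 nt showed it most: the median replicate difference of the 59 such genes was 0.16 on the log2 scale in anterior and -0.15 in central cells, against 0.04 and -0.05 for the 30 longer ones. All 1391 tested genes with transcripts under 1000 nt had median replicate differences of 0.06 and -0.12. Rn45s, the ribosomal RNA precursor, took 0.323% and 1.20% of counts in anterior libraries 1 and 2 and 0.682% and 0.411% in central libraries 1 and 2, so it too was higher in anterior library 2 and central library 1. Over the 90 genes the median replicate differences are larger in size than the median difference between the groups reported next, -0.07. Over the 30 longer genes they are smaller than it. The part of these shifts and of Rn45s in the differences between the groups was not tested. A fit without Rn45s kept the same 9 calls, but it leaves the counts of all other genes as they were.

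**Figure D1:**
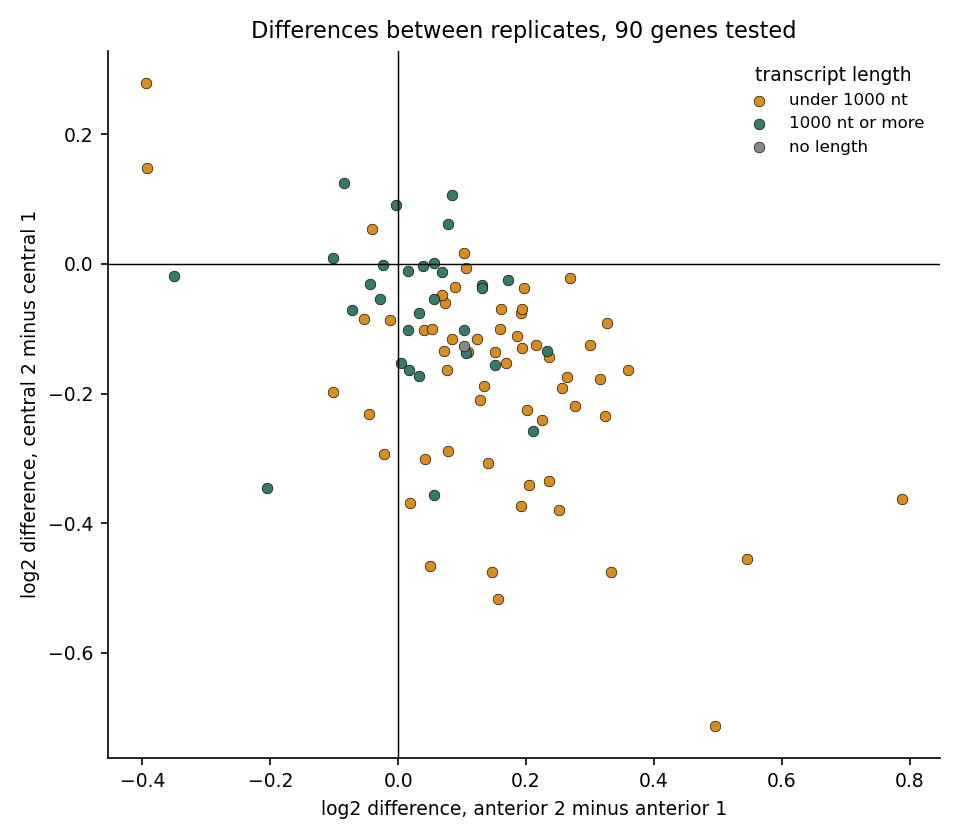
Log2 difference between the replicates of the central group (vertical axis) against that of the anterior group (horizontal axis), 1 point for each of the 90 genes tested, coloured by transcript length. Most points, 69 of 90, lie at the lower right, where anterior library 2 exceeded anterior library 1 and central library 2 was below central library 1.

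Between the groups, most of these genes differed little. An edgeR quasi-likelihood test over all genes, adjusted by Benjamini-Hochberg, called 9 of the 90 at an adjusted p of 0.05, which is 10%, against 22.9% of all 14610 tested genes and 24.2% of the 9491 genes with a mean of at least 10 CPM. The directions were unequal in number: 2 genes were higher in anterior cells, where the share of all tested genes is 10.7%, and 7 were lower, where it is 12.3%. In this fit the share called was below the background in total and in each direction. Without central library 2 it was not so for lower calls, which made up 15.7% of these genes and 12.1% of all tested genes. The median log2 fold change, anterior minus central, was -0.07 over the 90 genes and -0.01 over all tested genes. Over those with a mean of at least 10 CPM it was 0.03. Values below 0 were found in 63 of the 90, in 7475 of the 14610 and in 4217 of the 9491. The median absolute log2 fold change was 0.09, against 0.22 over all tested genes and 0.16 over those with a mean of at least 10 CPM. The 95% confidence interval lay within a 1.5-fold change in either direction for 77 of the 90. It did so for 7681 of all 14610 tested genes and for 7467 of the 9491 with a mean of at least 10 CPM. The groups of 2 did not overlap in 41 genes (45.6%), against 63.5% of all tested genes. In bulk RNA, fewer cells of a type and less RNA per cell cannot be told apart.

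**Figure D2:**
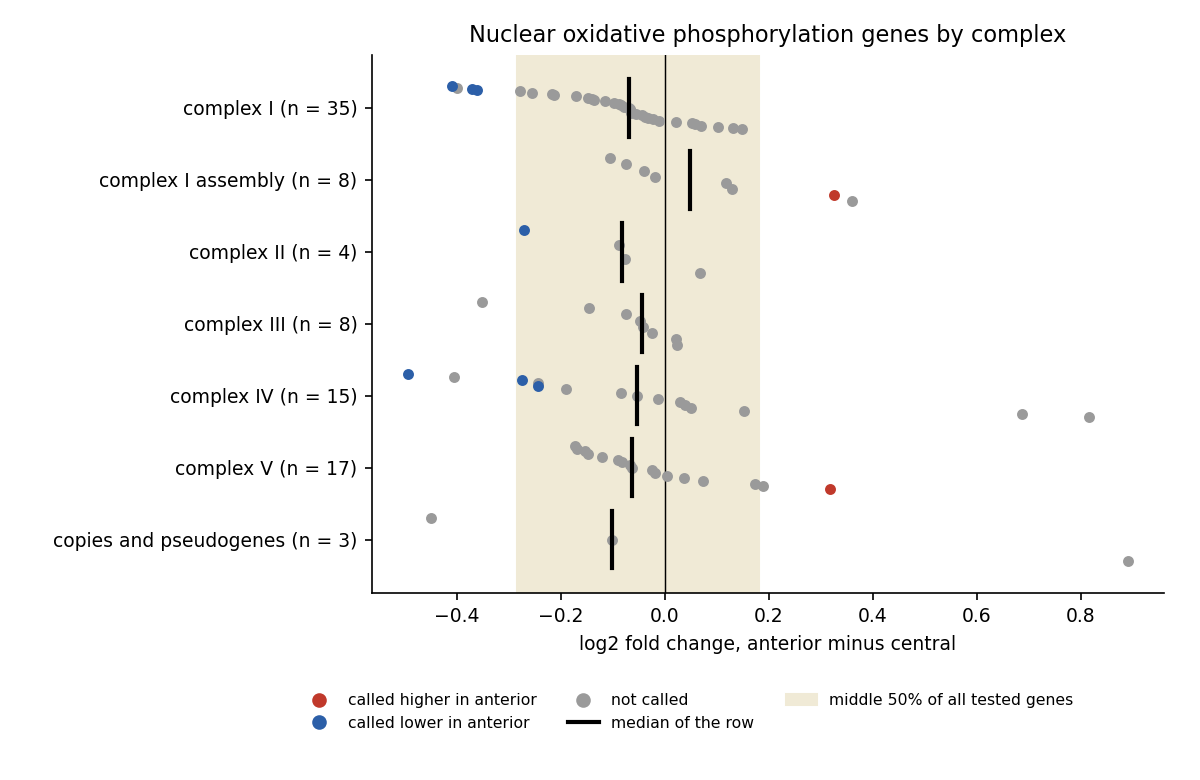
Log2 fold change, anterior minus central, of each of the 90 genes tested, by complex, with calls in colour, a bar at the median of each row, and a band over the interquartile range of all tested genes (-0.29 to 0.18). The medians of complexes I to V lie between -0.08 and -0.05, inside the band, and 9 points are coloured.

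The count of calls moved when any 1 of the 4 libraries was left out, among these genes and over all tested genes. Each such fit leaves 1 library in a group, so these counts are not compared here. The gene called under each of these 4 omissions was Cox7a2l. The median over the genes tested in each omission, 89 to 92 in number, ranged from -0.11 to -0.01 on the log2 scale across the omissions. The balance of all calls moved with the scaling. The share that were higher was 46.5% here, 40.3% with library size only and 39.1% with upper-quartile factors. Offsets for GC content and transcript length, fitted by least squares without centring, moved the median of all genes to 0.14, and the share of higher calls to 73.5%. With these offsets 11 of the 90 genes were called (12.2%, against 37.8% of all tested genes), 6 higher and 5 lower. The shares of all tested genes were 27.8% higher and 10% lower. Cox4i1, Sdha, Ndufv3 and Ndufb9 were not among the 11. The median of the 90 genes, 0.03, lay below that of all genes.

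Gene positions below are those of RefSeq on GRCm38.p6. Cox7a2l, also known as SCAF1 or COX7RP, encodes a protein that joins complexes III and IV in respiratory supercomplexes. Its level was 52.5 and 52.6 CPM in the anterior libraries and 78.0 and 70.1 CPM in the central libraries. Both anterior values lay below both central values, and the anterior libraries differed from each other by less than 1 CPM. The fold change was -0.49 on the log2 scale (SE 0.084, adjusted p = 0.0037), a difference of -29.0% with a 95% confidence interval of -37.8% to -18.9%. It was called in 22 of 23 other settings, the exception being the test against a 1.5-fold change, with log2 fold changes of -0.57 to -0.41. The gene lies at chr17:83501917-83514333 and no other annotated exon overlaps its exons.

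**Figure D3:**
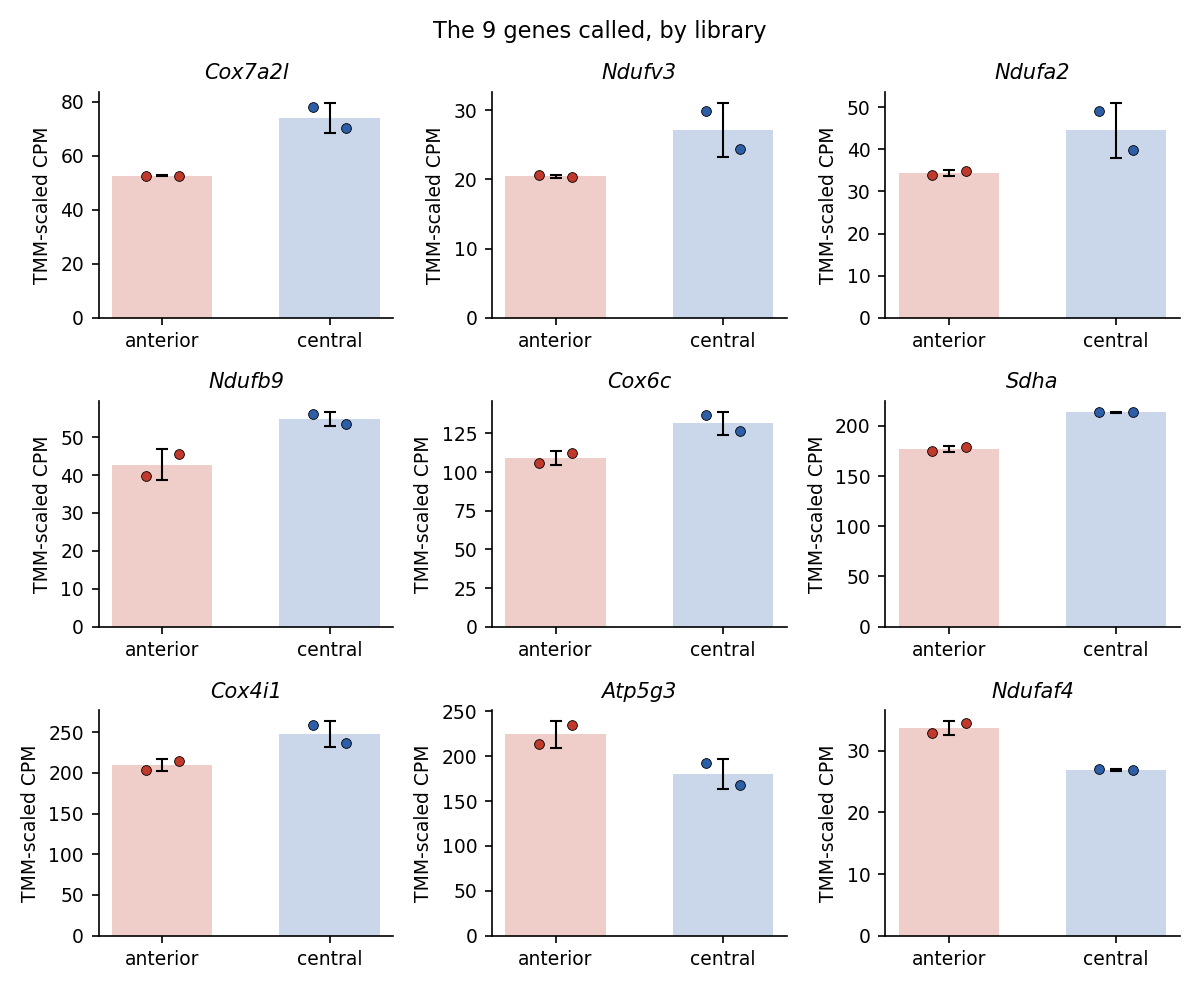
Level in CPM of each of the 9 genes called, by group; points are the 2 libraries, bars the mean and error bars the SD, and each vertical axis starts at 0. In all 9 panels the points of the groups do not overlap, 7 with anterior cells lower and 2, Atp5g3 and Ndufaf4, with anterior cells higher. The genes were picked by a test on these same values, and 63.5% of all tested genes also do not overlap.

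In complex I, 3 of 35 genes were called, all lower in anterior cells. This is 8.57%, against 22.9% of all tested genes called and 12.3% called lower. The median log2 fold change was -0.07. None of the 7 genes for the catalytic core, which holds the NADH site, the iron-sulfur clusters and the path to ubiquinone, was called. The interval of each lay within a 1.5-fold change. Ndufv1, the subunit that binds NADH and flavin, had a log2 fold change of 0.02, with an interval of -10.4% to 15.1%, and was below 0 with library size only or upper-quartile scaling. Ndufs1, Ndufs3, Ndufs7, Ndufs8 and Ndufv2, which carry iron-sulfur clusters or build the core around them, had log2 fold changes of -0.10, -0.08, -0.07, -0.04 and -0.09.

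The 3 calls in complex I were accessory subunits, which surround the core. Ndufv3, a small subunit of the NADH-oxidising module (chr17:31520115-31531326), measured 20.6 and 20.3 CPM in anterior and 29.9 and 24.4 CPM in central libraries. Its log2 fold change was -0.41 (SE 0.13, adjusted p = 0.0463). Ndufb9, a subunit of the membrane arm (chr15:58933801-58939516), measured 39.8 and 45.6 CPM in anterior and 56.1 and 53.5 CPM in central libraries, with a log2 fold change of -0.36 (SE 0.094, adjusted p = 0.0253). Ndufa2, a subunit with a thioredoxin-like fold, lies at chr18:36742332-36744587. It measured 33.9 and 34.9 CPM in anterior and 49.2 and 39.9 CPM in central libraries, with a log2 fold change of -0.37 (SE 0.11, adjusted p = 0.0457). For each of the 3 the groups were apart, and central library 1 was the highest value. Ndufv3 and Ndufa2 were called after the omission of central library 2 alone among the 4 omissions, with adjusted p of 0.107 to 0.262 in the others, and limma-voom called neither of them. Without central library 1 their log2 fold changes were -0.25 and -0.21. Ndufb9 lost its call without anterior library 1 (adjusted p = 0.186), and DESeq2 did not call Ndufv3. The exons of Ndufa2 overlap those of Tmco6 on the other strand, whose log2 fold change was -0.31 (adjusted p = 0.195). Those of Ndufb9 overlap the annotated gene Gm49356 on the same strand. Whether the counting used strand is not given in the sources used here, so reads of such pairs cannot be told apart.

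Ndufs5, an accessory subunit of complex I, had counts of 2, 0, 0 and 0, while the symbol Ndufs5-ps, a processed copy on chromosome 16, had 514, 486, 552 and 531. Reads of the gene and its copy may have been assigned to the copy, so neither count is taken as a level of Ndufs5. The log2 fold change of Ndufs5-ps was -0.10 (adjusted p = 0.629). Of the other copies or pseudogenes tested, Cox7c-ps1 had 0.89 at 0.278 to 0.886 CPM, the largest value among the 90 (adjusted p = 0.352). Ndufb4c had -0.45 at 0.2045 to 0.3707 CPM (adjusted p = 0.703). Neither was called.

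Of the 8 complex I assembly factors, which help build the complex and are not part of it, 1 was called (12.5%, against 22.9% of all tested genes). Ndufaf4 (chr4:24898083-24905001) measured 32.95 and 34.6 CPM in anterior and 27.1 and 26.8 CPM in central libraries. The groups did not overlap, and the log2 fold change was 0.33 (SE 0.095, adjusted p = 0.0389). Its call was lost without any 1 of the 4 libraries, with adjusted p of 0.0721 to 0.199, with the DESeq2 test and with library size only or upper-quartile scaling. The median over the 8 factors was 0.05. The largest value, 0.36 for Ndufaf6, was not called (adjusted p = 0.196).

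Complex II is encoded wholly in the nucleus and belongs also to the citric acid cycle. Sdha, its flavoprotein, which oxidises succinate (chr13:74322255-74350240), measured 175 and 179 CPM in anterior and 214 and 213 CPM in central libraries. The replicates lay close together and the groups apart, with a log2 fold change of -0.27 (SE 0.061, adjusted p = 0.0134), or -17.1%. Without anterior library 1 or 2 it was not called (adjusted p = 0.143 and 0.103). The other subunits were not called. Sdhb measured 100.4 and 102 CPM in anterior and 114 and 101.4 CPM in central libraries, which overlap, with an interval of -16.7% to 6.17%. The membrane anchors Sdhc and Sdhd had log2 fold changes of -0.08 and 0.07, with intervals of -15.0% to 5.68% and -8.65% to 20.2%. Summed over the complex, the levels were 459 and 476.5 CPM in anterior and 526 and 498.5 CPM in central libraries.

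Complex III had no call among 8 genes tested, with a median log2 fold change of -0.05. The core proteins Uqcrc1 and Uqcrc2 had log2 fold changes of -0.02 and -0.07, and Uqcrfs1, the Rieske iron-sulfur protein, had -0.04. Uqcrh had -0.15 (adjusted p = 0.279). The value furthest from 0 was that of Uqcr11, a small accessory subunit, at -0.35 (adjusted p = 0.0794). It measured 24.3 and 29.45 CPM in anterior and 36.9 and 31.7 CPM in central libraries. It was called without a count filter, with centred GC and length offsets plus the replicate block, and without anterior library 2 or central library 2. Cyc1, the heme-bearing subunit of complex III, falls outside the symbol rule and had a log2 fold change of 0.22 (adjusted p = 0.0723).

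In complex IV, 3 of 15 genes tested were called, all lower in anterior cells: Cox7a2l, Cox6c and Cox4i1. This is 20%, against 22.9% of all tested genes called and 12.3% called lower, and nothing is read from a share at this size. The median over the 15 was -0.05 on the log2 scale. Cox6c, a membrane subunit (chr15:35931976-35938246), measured 106 and 112 CPM in anterior and 137 and 126 CPM in central libraries, with a log2 fold change of -0.27 (SE 0.073, adjusted p = 0.0268). Its exons overlap those of Vps13b on the other strand, a gene that was itself lower in anterior cells, at -0.63 on the log2 scale (adjusted p = 0.0062), with a mean level of 58.2 CPM. Cox4i1, at chr8:120668225-120674209, measured 204 and 214.5 CPM in anterior and 259 and 236 CPM in central libraries, with a log2 fold change of -0.24 (SE 0.070, adjusted p = 0.036). Its exons overlap those of Emc8 on the other strand, which had 0.07 (adjusted p = 0.542). In both genes the groups were apart and central library 1 was highest. Both calls were lost without anterior library 1, anterior library 2 or central library 1, with adjusted p of 0.0576 to 0.254, and kept without central library 2.

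The other common subunits of complex IV were not called. Cox6a1 had a log2 fold change of 0.15 (adjusted p = 0.186), Cox6b1 -0.08, Cox7a2 0.04, Cox7b -0.05 and Cox8a 0.03. The value of Cox8a, with an interval of -8.52% to 13.7%, was below 0 with library size only or upper-quartile scaling, and it was called in 1 of 23 other settings. Ndufa4, first assigned to complex I and since found in complex IV, had -0.19 (adjusted p = 0.131). It measured 96.9 and 111 CPM in anterior and 120 and 117 CPM in central libraries, which do not overlap. Its log2 fold change was -0.09 without anterior library 1. Cox6a1, higher, and Ndufa4, lower, were each called in 4 of 23 other settings, those with GC and length offsets, centred or not and with or without the replicate block.

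The tissue-restricted isoforms were scarce or absent. Cox6a2, the form of heart and skeletal muscle, had 0 counts in each library, where 3 counts, the limit that a count of 0 allows, would be 0.0899 to 0.102 CPM. That limit takes counts as independent, and since most small counts were even, the true limit may be higher. Cox8b, also a muscle form, had counts of 6, 4, 4 and 13, and Cox7a1, the muscle form of subunit 7a, had 13, 8, 12 and 16, in the order anterior 1, anterior 2, central 1 and central 2. Ndufa4l2, a paralog of Ndufa4 known to respond to hypoxia, had 8, 0, 4 and 10. On the scale of CPM per kb, Cox7a1 made up 0.496% to 1.04% of the sum of Cox7a1 and Cox7a2, and Cox8b made up 0.161% to 0.531% of the sum of Cox8b and Cox8a. These shares overlapped between the groups.

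Cox4i2 and Cox6b2 were the isoforms above these levels. Cox4i2, the form of subunit 4 known from lung and from low oxygen, measured 4.80 and 6.07 CPM in anterior and 3.60 and 2.56 CPM in central libraries. The groups did not overlap, and the log2 fold change of 0.82 (SE 0.29) was not called (adjusted p = 0.0739). Its interval ran from 12.0% to 177% before adjustment for the number of genes. Cox4i2 made up 2.35% and 2.82% of the sum of Cox4i2 and Cox4i1 per kb in anterior and 1.40% and 1.10% in central libraries. Cox6b2, known as the testis form of subunit 6b, measured 6.93 and 12.0 CPM in anterior and 6.62 and 5.13 CPM in central libraries. Its log2 fold change of 0.69 (SE 0.28) was not called (adjusted p = 0.121), and anterior library 2 stood above the other libraries. Its share of the pair with Cox6b1 per kb was 10.4% and 14.0% in anterior and 8.09% and 7.16% in central libraries. Without anterior library 2 the log2 fold change of Cox6b2 was 0.24 (adjusted p = 0.688), and without anterior library 1 it was 1.04, which was called (adjusted p = 0.0128). Of 23 other settings Cox4i2 was called in 6 and Cox6b2 in 5. For both these included no count filter, the omission of central library 1 and GC and length offsets with the replicate block.

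**Figure D4:**
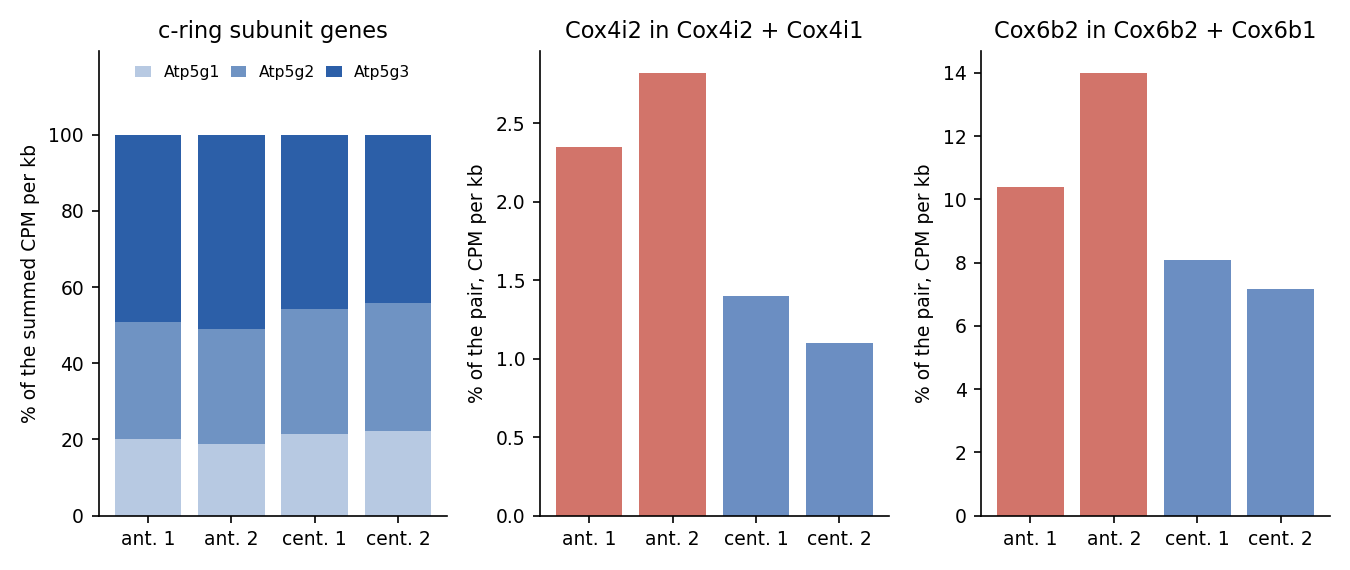
Shares by library, computed from CPM per kb of transcript: left, the 3 c-subunit genes as percent of their sum; middle and right, Cox4i2 and Cox6b2 as percent of the pair with the common isoform. The Atp5g3 share is 49.2% and 51.1% in anterior and 45.7% and 44.1% in central libraries, and Cox4i2 stays under 3% of its pair in each library.

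In complex V, 1 of 17 genes was called (5.88%, against 22.9% of all tested genes). Atp5g3 (chr2:73908447-73912464), which encodes the c subunit of the membrane rotor ring, measured 214 and 235 CPM in anterior and 192 and 168 CPM in central libraries. The groups did not overlap, and the log2 fold change was 0.32 (SE 0.082, adjusted p = 0.0242), or 24.6% with an interval of 9.49% to 41.8%. It was called in 20 of 23 other settings, and not at a threshold of 0.01, in the test against a 1.5-fold change or without anterior library 2 (adjusted p = 0.175). The genes for the same mature protein did not pass: Atp5g1 had a log2 fold change of -0.02, with an interval of -12.4% to 11.2%, and Atp5g2 had 0.04, with -7.86% to 14.2%, values that crossed 0 under GC and length offsets and under upper-quartile scaling respectively; Atp5g2 was called in 1 of 23 other settings, uncentred offsets with the replicate block. Atp5g1 measured 72.6 and 71.9 CPM in anterior and 75.4 and 71.05 CPM in central libraries, and Atp5g2 137 and 142 against 141 and 131 CPM. The difference between the fold changes of these genes was not tested. Atp5g3 was the largest contributor in each library, with 49.2% and 51.1% of the summed CPM per kb of the 3 genes in anterior and 45.7% and 44.1% in central libraries.

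The rest of the ATP synthase was not called. The 5 genes of the F1 catalytic part had a median log2 fold change of -0.07. Atp5b measured 1115 and 1127 CPM in anterior and 1070 and 1062 CPM in central libraries, an interval of -4.19% to 15.5%. Atp5a1, the alpha subunit, measured 948 and 933 CPM against 1023 and 1022 CPM, with -0.12 (adjusted p = 0.186). The values of alpha and beta had opposite signs and neither passed, though Atp5b was called in 2 of 23 other settings, both with uncentred offsets. The 4 genes of the peripheral stalk, which holds F1 still, had a median of -0.12, and the 5 membrane accessory subunits -0.02. The median over complex V was -0.06 and changed sign with the library omitted, to 0.07 without anterior library 1 and 0.05 without central library 1.

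Other genes that serve the pathway were taken from lists of 234 symbols, of which 229 were tested. Of these 20 were called (8.73%, against 22.9% of all tested genes), 13 higher and 7 lower in anterior cells, where the shares of all tested genes are 10.7% and 12.3%, with a median log2 fold change of 0.05. The count of calls in these lists moved when any 1 library was left out, as did the count over all tested genes. Among 14 nuclear regulators 4 were called, or 28.6% against the 22.9% of all tested genes, a share from which nothing is read at this size. The coactivators of the PGC-1 family differed in direction. Ppargc1a, which encodes PGC-1alpha, a coactivator of mitochondrial biogenesis, measured 3.12 and 1.57 CPM in anterior and 10.98 and 10.3 CPM in central libraries. Its log2 fold change was -2.17 (SE 0.31, adjusted p = 0.00153) and it was called in all 23 other settings. Ppargc1b had -0.93 and was not called (adjusted p = 0.074). Pprc1, the growth-regulated member, measured 160.4 and 163 CPM in anterior and 97.25 and 120.4 CPM in central libraries, with 0.57 (SE 0.097, adjusted p = 0.00368).

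Of the transcription factors, Nrf1 had a log2 fold change of 0.16, Gabpa 0.20, Esrra 0.25 and Tfam, the packaging and transcription factor of mitochondrial DNA, 0.24. None of these was called, with adjusted p from 0.0658 to 0.339. Esrrg, an orphan receptor that partners PGC-1 proteins, had -2.20 (SE 0.49, adjusted p = 0.0129) at levels of 0.341 to 2.14 CPM, and lost its call without anterior library 2 or central library 1 (adjusted p = 0.0621 and 0.0703). Myc, named after its value was seen, was the remaining call among regulators, at -1.83 (adjusted p = 9.69e-05).

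Among 23 genes of the citric acid cycle and pyruvate dehydrogenase, 3 were higher and 2 lower, 21.7% in all and near the 22.9% of all tested genes, and the median log2 fold change was 0.07. Pdha1, the E1 alpha subunit of pyruvate dehydrogenase, measured 95.04 and 98.5 CPM in anterior and 59.45 and 55.0 CPM in central libraries, with 0.76 (SE 0.078, adjusted p = 2.36e-04). Pdk2, a kinase that inhibits that enzyme, had -0.49 (adjusted p = 0.0278). Idh3a and Idh3b, subunits of the same isocitrate dehydrogenase, were called in opposite directions, at 0.38 (adjusted p = 0.007) and -0.28 (adjusted p = 0.0273). The call of Idh3b was lost without either anterior library (adjusted p = 0.055 and 0.266), and that of Pdk2 without either of them or central library 1 (0.0719 to 0.119). Among 13 carriers and outer membrane genes 3 were higher and none lower. This is 23.1%, against 22.9% of all tested genes called and 10.7% called higher, and nothing is read from a share at this size. The calls include Ucp2, a carrier of the uncoupling protein family, at 0.78 (adjusted p = 0.00143), and Slc25a10, the dicarboxylate carrier, at 0.58 (adjusted p = 0.0019).

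Cytochrome c itself, Cycs, had a log2 fold change of 0.18 and was not called (adjusted p = 0.126). Of 15 genes of cytochrome c and ubiquinone synthesis, a list that also holds Cyc1 of complex III, 3 were called. Coq3 was higher at 0.60 (adjusted p = 0.0303). Coq2 and Coq8b were lower at -0.41 and -0.42 (adjusted p = 0.0214 and 0.031). Those 3 calls are 20% of the list, against 22.9% of all tested genes. Of 23 complex IV assembly genes 1 was called, Coa6, at 0.57 (adjusted p = 0.0421). No call was made among 10 further complex I assembly genes, 4 for complex II, 6 for complex III and 6 for complex V. Of 22 protein import genes Tomm40 and Tomm70a, both of the outer membrane translocase, were higher at 0.33 and 0.27 (adjusted p = 0.00683 and 0.0134). Of 15 genes of mitochondrial DNA expression Polg, the polymerase of mitochondrial DNA, was called at 0.32 (adjusted p = 0.0237). Of 78 mitochondrial ribosomal protein genes 1 was called, Mrps30, at 0.26 (adjusted p = 0.0374), and the median of the 78 was 0.09. The shares called were 4.35% for complex IV assembly, 9.09% for protein import, 6.67% for mitochondrial DNA expression and 1.28% for mitochondrial ribosomal proteins. The 6 genes Coq2, Coq8b, Coq3, Coa6, Polg and Mrps30 each lost the call under 3 of the 4 omissions of a library. Tomm40 lost it without anterior library 2 (adjusted p = 0.0635), and Tomm70a without either anterior library (adjusted p = 0.108 and 0.099).

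**Figure D5:**
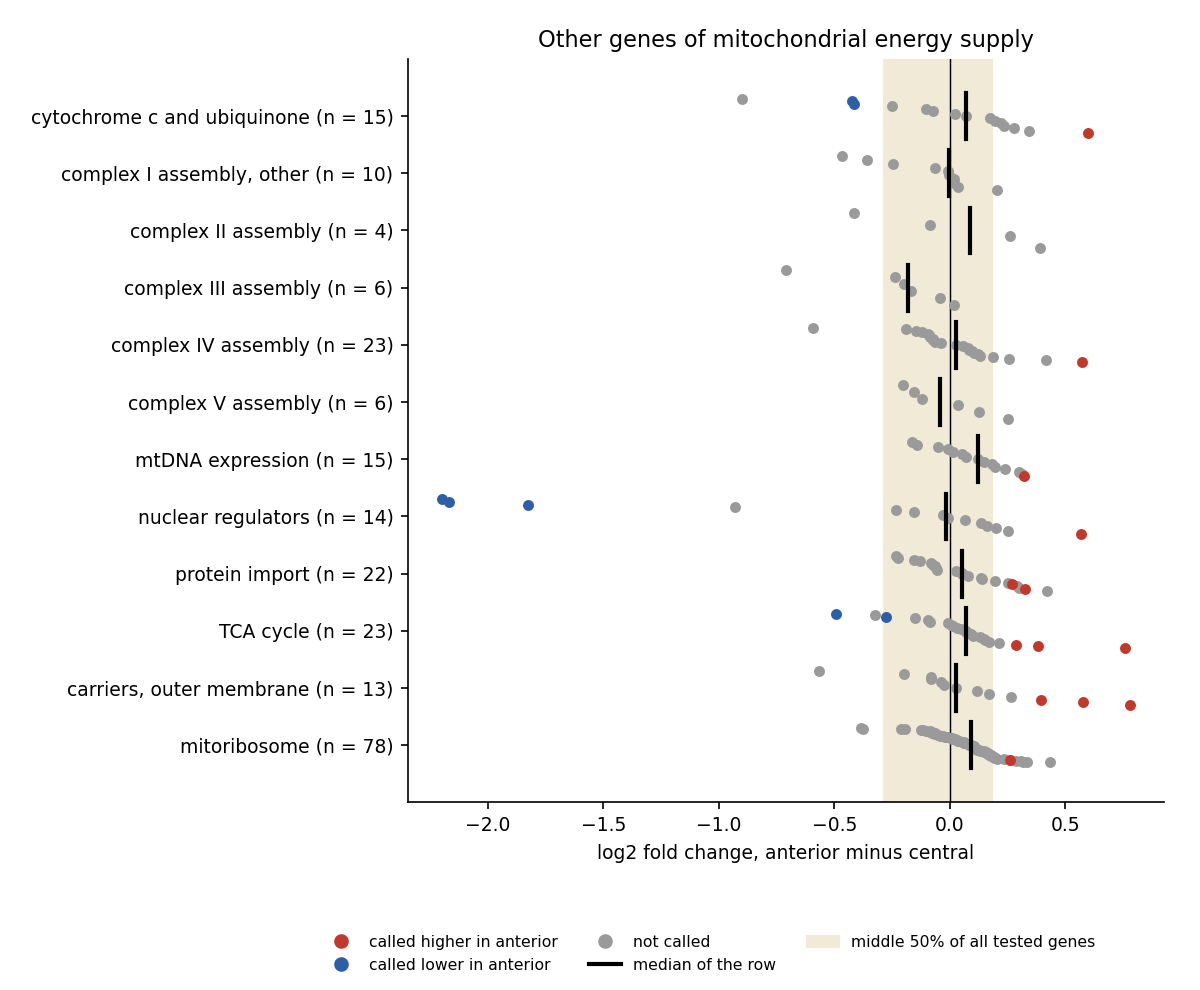
Log2 fold change, anterior minus central, of the 229 other pathway genes by list, with calls in colour, a bar at the median of each row and a band over the interquartile range of all tested genes. The 3 points at or below -1.8 are Esrrg, Ppargc1a and Myc, and the 78 mitochondrial ribosomal protein genes hold 1 coloured point.

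Markers of several other cell types differed strongly between the groups, while the lists for neural crest and pericyte cells were mixed. Over all tested genes the share called was 22.9%. All 9 tested erythroid genes were higher in anterior cells, with summed levels of 3303 and 8420 CPM in anterior and 6.04 and 9.55 CPM in central libraries. Hba-a1, Hba-a2, Hbb-bs and Hbb-bt had 0 counts in every library. How reads that map to several genes were treated is not given, so these 0 counts are not taken to show absence. All 11 myogenic genes were lower, with summed levels of 7.17 and 4.16 CPM in anterior and 197 and 158 CPM in central libraries, and Pax7 and Myog had 0 counts in both anterior libraries. Of the endothelial genes 6 of 10 were lower (12.8 and 15.1 CPM against 38.8 and 45.8), of the surface ectoderm genes 10 of 11 (10.4 and 10.2 against 60.7 and 201) and of the cartilage genes 7 of 10 (517 and 385 against 1688 and 1320). Of the macrophage genes 5 of 9 were higher (36.6 and 28.2 against 16.8 and 17.7). Of the neural crest and Schwann genes 1 of 6 was higher and 2 were lower (62.7 and 43.3 against 44.6 and 33.2). Most of that sum in both anterior libraries came from Ngfr, the gene called higher, with a log2 fold change of 1.71. Sox10 and Erbb3, the genes called lower, had -8.477 and -3.885, so the sum does not show the direction of the list. Of the pericyte genes 2 of 5 were lower (189 and 223 against 200.1 and 219). Pdgfrb, which was not called, made up most of the pericyte sum in each library. Sox10, Foxd3 and Matn1 had 0 counts in both anterior libraries, and Snorc and Kcnj8 in all 4. Of 8 limb mesenchyme genes 1 was higher and 3 were lower, at summed levels of 3023 and 2839 CPM against 3939 and 3636. Removing the erythroid genes before scaling left the same 9 calls among the oxidative phosphorylation genes. That step takes out only the marker genes and not the other RNA of those cells, so it does not test their part. The part of these cell types in the differences was not tested.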

How the data were processed

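The authors deposited whole-number read counts for 25239 gene symbols in 4 libraries, not normalized. Per the submitters' processing notes, the build was mm10 and the tools were STAR 2.7.9a, HTSeq and DESeq2 (version given as 3.16); strand setting, annotation and treatment of multi-mapped reads are not given in the sources used here. Libraries were grouped by title.

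Counts were fitted with edgeR 4.0.16 (R 4.3.3): default filterByExpr (14610 genes), TMM scaling, quasi-likelihood F test of anterior against central, two-sided, Benjamini-Hochberg adjustment over all tested genes, threshold 0.05. The model leaves 2 residual degrees of freedom. The SE is the absolute log2 fold change over the square root of F, and intervals (95%) use the moderated degrees of freedom. The fit was also run on simulated counts with a common dispersion for all genes. These lacked the excess of even counts and the replicate shifts seen here, so that run does not show how often calls are false in these data. The limit of 3 counts covers counting error only and takes counts as independent, which the excess of even counts puts in doubt. PCR copies could not be told from separate molecules.

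Lengths come from GENCODE M21: the median-length coding transcript with a RefSeq match, chosen after the longest transcript had been seen to give implausible lengths. Gene coordinates are RefSeq's (GRCm38.p6).

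The genes, lists and rules were chosen with earlier results of these data known. Genes were named by rule: isoforms, complex I core and complex II subunits, the highest gene per complex by length-scaled level, up to 3 calls per direction in each complex, and up to 2 per direction in each list with 7 fixed genes. One gene that the rule names is not reported here. Genes outside the rule were named to describe a complex, an overlap or a count. Alternatives covered scaling, test, count filter, replicate block, halved counts, erythroid or Rn45s removal, GC and length offsets, thresholds, and leaving out each library. DESeq2 was version 1.42.0 and limma 3.58.1.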

Additional observations from a re-analysis of the deposited data

How the results depend on the processing

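Of the 90 genes tested, 7 to 9 were called with the other scalings, with DESeq2, limma-voom or a robust prior, with a mean count of at least 50, with halved counts, and without the erythroid genes or Rn45s. In these settings that was 7.78% to 10.3% of the genes tested, against 21.4% to 24.7% over the whole table. Among these genes, those called higher numbered 1 with library size only, upper-quartile factors or the DESeq2 test. Without a count filter 4 were higher and 8 lower, 12.9% in all, against 20.7% of all tested genes. At a threshold of 0.01, 1690 genes of the whole table were called, with 0 higher and 1 lower among the 90 and 9 among the other pathway genes. Against a 1.5-fold change edgeR's test called 1035, 0, 0 and 3. The complex I assembly median was 0.0170 with library size only and 0.0109 with upper-quartile factors. Offsets for GC content and length, robust and centred, gave 4 higher, 9 lower and 35 other pathway genes, and with the replicate block added 5, 12 and 45. Of the 90 genes 14.4% and 18.9% were so called, against 27.2% and 32.1% of all tested genes. Both fits kept the 9. The robust, centred form was chosen after least-squares, uncentred offsets had been seen. The uncentred form called 5521 genes of the table, 6 higher and 5 lower among the 90 and 67 other pathway genes, with medians of 0.140, 0.0610 and 0.0237 for complex I assembly, complex II and complex V; with the replicate block these were 5996, 11, 6, 75, 0.138, 0.0611 and 0.0238. The cause of these shifts was not tested. Leaving out 1 library, where the lone sample of a group is assumed to vary like the other group, gave 2009 to 3697 genes of the table, 0 to 4 higher, 1 to 14 lower and 9 to 25 other pathway genes. Medians then ranged over 0.0327 to 0.0713 for complex I assembly, -0.140 to -0.0199 for complex II and -0.111 to 0.0669 for complex V.

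Log2 fold changes near 0 changed sign in some settings. With library size only they were Cox8a -0.00280 and Ndufv1 -0.00972, and with upper-quartile factors Cox8a -0.00924, Atp5g2 -7.70e-04 and Ndufv1 -0.0159. With GC and length offsets they were Atp5g1 0.0138 and Ndufs7 0.00411, and with the replicate block Atp5g1 0.0137 and Ndufs7 0.00365. With uncentred offsets they were Atp5g1 0.0931, Sdhb 0.0363, Sdhc 0.0858, Ndufs3 0.0290, Ndufs7 0.127, Ndufs8 0.0849 and Ndufb8 0.0441, and with the replicate block Atp5g1 0.0931, Sdhb 0.0366, Sdhc 0.0855, Ndufs3 0.0276, Ndufs7 0.127, Ndufs8 0.0823 and Ndufb8 0.0444. The ranges on leaving out 1 library were Cox6b1 -0.245 to 0.0687, Ndufs3 -0.200 to 0.0587, Ndufs8 -0.133 to 0.0588, Cox7a2 -0.0609 to 0.149, Sdhd -0.00671 to 0.150, Ndufv1 -0.0433 to 0.0945, Cox7b -0.136 to 0.0369, Atp5g1 -0.0600 to 0.0264, Cox8a -0.0196 to 0.0824 and Atp5g2 -0.0103 to 0.0900. None of the 9 called genes changed sign in any setting run.

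The groups share replicate numbers. Replicate differences correlated at 0.0393 (Pearson, over 14610 genes, 2 pairs), and at -0.542 over the 90, so the numbers were not taken to pair libraries. With the replicate block alone the same 9 genes were called, 2 higher and 7 lower. The number of libraries, 2 a group, limits the precision.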
